A study of Mus musculus with 6 samples.

Results

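The proteasome is the protease that degrades ubiquitin-tagged proteins, and its subunits are encoded by the Psma, Psmb, Psmc, Psmd and Psme genes. Every gene whose symbol is 1 of these stems followed by a number alone was taken, which gave 43 of the 40773 genes in the deposited count table. RNA was sequenced from RAW264.7 cells, an established mouse macrophage line whose genotype label reads "plain". In 3 cultures the cells were kept for 24 h with lipopolysaccharide (LPS), a bacterial cell wall component, at 100 ng/mL. The other 3 cultures received the same LPS together with 3A2, an antibody that neutralizes the membrane metalloproteinase MMP14, at 50 µg/mL. All 6 cultures thus carried LPS, and untreated cells or a control antibody were not analysed here. The line is a single cell line in culture, and the replicates are labelled as biological, with no word on culture dates.

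The barrel-shaped core of the proteasome, the 20S particle, is a stack of outer rings of alpha subunits and inner rings of beta subunits, some of which carry the proteolytic sites. In immune cells and under interferon, the constitutive catalytic subunits Psmb5, Psmb6 and Psmb7 can be replaced by Psmb8, Psmb9 and Psmb10, which forms the immunoproteasome and shifts the peptides made towards those that MHC class I presents. The 19S regulatory particle recognizes, unfolds and feeds in substrates through a base with a ring of ATPases and a lid, and alternative activators of the Psme group open the core without ATP hydrolysis. Macrophages are known to hold both core types, and the immunoproteasome genes are known interferon targets.

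Library totals were 6060732 to 7432553 counts, and 14998 to 15309 genes had a count. The proteasome genes together held 30343 to 36913 counts per library. Sampling error weighs more on single genes with few counts, such as Psma8 (98 to 112 per library), Psmb9 (115 to 163) and Psmb10 (117 to 209). Levels are given as CPM, the count scaled to the library total with the TMM method of edgeR. Macrophage markers summed to 6995 to 7056 CPM with LPS and 6045 to 6491 CPM with 3A2, with 9 of 9 detected, although the mannose receptor gene Mrc1 reached at most 1.46 CPM. The lysozyme gene Lyz2, at 0.871-fold with 3A2, made up most of that difference. Csf1r stood at 0.878-fold and Spi1 at 0.864-fold. The groups of Lyz2, Csf1r and Itgam did not overlap, all lower with 3A2, where 6.46% of all genes tested had groups apart and lower. None of the markers tested passed over all genes (adjusted p = 0.719 for Lyz2, Csf1r and Spi1 by edgeR), and Mrc1 was too low to test. The part of these markers in the proteasome values was not tested. In bulk RNA of a single cell line, less of an mRNA in every cell and less in a part of the cells cannot be told apart. T cell, B cell, epithelial and fibroblast or adipocyte markers summed to at most 0.668 CPM in any library, and the T cell genes Cd3e, Cd4 and Cd8a and the epithelial genes Epcam, Krt8 and Krt18 were at 0 counts. Neutrophil markers summed to 5.68 to 7.46 CPM, nearly all from S100a8, with Ly6g at 0 counts. LPS plus 3A2 replicate 3 stood apart: mean mitochondrial mRNA was 0.45 above the mean of all libraries on the log2 scale there, against -0.21 to 0.11 elsewhere, and ribosomal protein mRNA was -0.12 there, against 0.012 to 0.040.

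Promoters of a few subunits are shown first: the pair Psmb5 and Psmb8, the interferon-regulated Psmb9 and Psme1, and Psma4, which had the smallest p-value of the group. The promoter of Psmb10 is not shown. RefSeq promoters on GRCm38.p6 were at hand for 36 of the 43 genes. Each stretch runs 5′ to 3′ on the gene's strand from 250 bases before the annotated start to 20 after it. Capitals mark matches, on either strand, to 2 cores: the antioxidant response element core TGANNNNGC, to which NRF1 and NRF2 type factors bind, and the interferon-stimulated response element core (GAAA, 2 free bases, GAAA).
Psmb5, GRCm38.p6 chr14:54617976-54618245, minus strand: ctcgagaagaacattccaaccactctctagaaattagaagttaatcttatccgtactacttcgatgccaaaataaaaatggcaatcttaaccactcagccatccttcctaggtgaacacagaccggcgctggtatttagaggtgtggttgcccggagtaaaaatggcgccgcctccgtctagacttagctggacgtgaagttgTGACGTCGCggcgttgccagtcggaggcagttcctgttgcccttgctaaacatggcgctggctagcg
Psmb8, GRCm38.p6 chr17:34197945-34198214, plus strand: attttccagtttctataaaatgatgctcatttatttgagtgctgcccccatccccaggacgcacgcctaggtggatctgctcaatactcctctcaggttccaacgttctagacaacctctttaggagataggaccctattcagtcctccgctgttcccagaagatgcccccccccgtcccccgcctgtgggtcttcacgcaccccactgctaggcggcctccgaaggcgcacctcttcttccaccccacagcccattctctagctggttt
Psmb9, GRCm38.p6 chr17:34187311-34187580, minus strand: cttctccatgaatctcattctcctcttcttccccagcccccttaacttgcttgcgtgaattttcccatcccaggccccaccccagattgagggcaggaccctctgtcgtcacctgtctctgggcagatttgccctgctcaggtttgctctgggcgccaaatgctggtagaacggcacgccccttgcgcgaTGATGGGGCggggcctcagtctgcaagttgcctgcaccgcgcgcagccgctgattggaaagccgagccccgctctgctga
Psme1, GRCm38.p6 chr14:55578244-55578513, plus strand: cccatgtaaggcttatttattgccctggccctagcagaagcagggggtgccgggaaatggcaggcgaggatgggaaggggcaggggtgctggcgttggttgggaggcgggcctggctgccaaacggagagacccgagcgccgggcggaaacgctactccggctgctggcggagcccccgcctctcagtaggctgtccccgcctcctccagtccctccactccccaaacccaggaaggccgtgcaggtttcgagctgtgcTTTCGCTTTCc
Psma4, GRCm38.p6 chr9:54950609-54950878, plus strand: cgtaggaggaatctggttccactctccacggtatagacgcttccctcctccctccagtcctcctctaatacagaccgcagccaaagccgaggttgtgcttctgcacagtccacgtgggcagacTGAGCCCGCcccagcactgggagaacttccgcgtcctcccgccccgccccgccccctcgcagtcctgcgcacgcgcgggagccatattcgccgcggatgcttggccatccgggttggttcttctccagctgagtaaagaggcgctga
The printed stretch of Psmb8 held neither set of letters, but an antioxidant element core began 23 bases after the start, past the printed end. The printed stretch did hold a gamma-activated site core (TTCNNNGAA), which is not capitalized, 97 bases before the start. The interferon element of Psme1, read on the other strand as TTTCGCTTTC, began 9 bases after the start. The capitalized antioxidant element core of Psmb5 lay 47 bases before the start, that of Psmb9 60 bases before and that of Psma4 127 bases before. Psmb5 and Psma4 each held a further such core past the printed end, 41 and 23 bases after the start.

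Over the full 300-base windows, the antioxidant element core was present in 21 of 36 proteasome promoters (58.3%). Among all 27025 genes with a promoter at hand, 45.0% held it, as did 48.1% of those tested here. This core was found in 4 of the 4 constitutive beta promoters at hand (Psmb3, Psmb4, Psmb5 and Psmb6), while Psmb1, Psmb2 and Psmb7 had none at hand. In the core particle it was also found in 4 of 7 alpha and 2 of 3 immunoproteasome promoters and in that of Psmb11. For the 19S genes the counts were 2 of 5 ATPase, 1 of 3 non-ATPase base and 3 of 6 lid promoters. Base assembly chaperones had it in 2 of 3 and activators in 2 of 4. The interferon element was found in 4 of 36 (Psmb3, Psmd4, Psmd9 and Psme1), or 11.1%, against 3.99% of all promoters and 3.81% of those of tested genes. An NF-κB core (GGGA, 4 free bases, CC) was found in 9 of 36 promoters, against 22.9% of all and 29.8% of tested genes' promoters, and a CCAAT box in 38.9% against 41.1% and 43.9%. The gamma-activated site core was found in 2 of 36 promoters (Psmb8 and Psmd2), or 5.56%, against 9.55% of all and 8.16% of tested genes' promoters. All of these are letter matches in short windows and were not tested.

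All but 1 of the proteasome genes were well expressed, and 42 of 43 passed the filter on low counts. The exception was Psmb11, the catalytic subunit of the thymoproteasome, which is known from thymic cortical epithelium. It had 1 count in LPS replicate 1 and 0 in the other 5 libraries, where a count of 0 allows up to 0.404 to 0.495 CPM (counting error only). Across the 42 others, the library values ran from 14.5 CPM (Psma8, LPS replicate 1) to 344 CPM (Psmd8, LPS plus 3A2 replicate 2), as the plot of CPM by library shows.

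**Figure D1:**
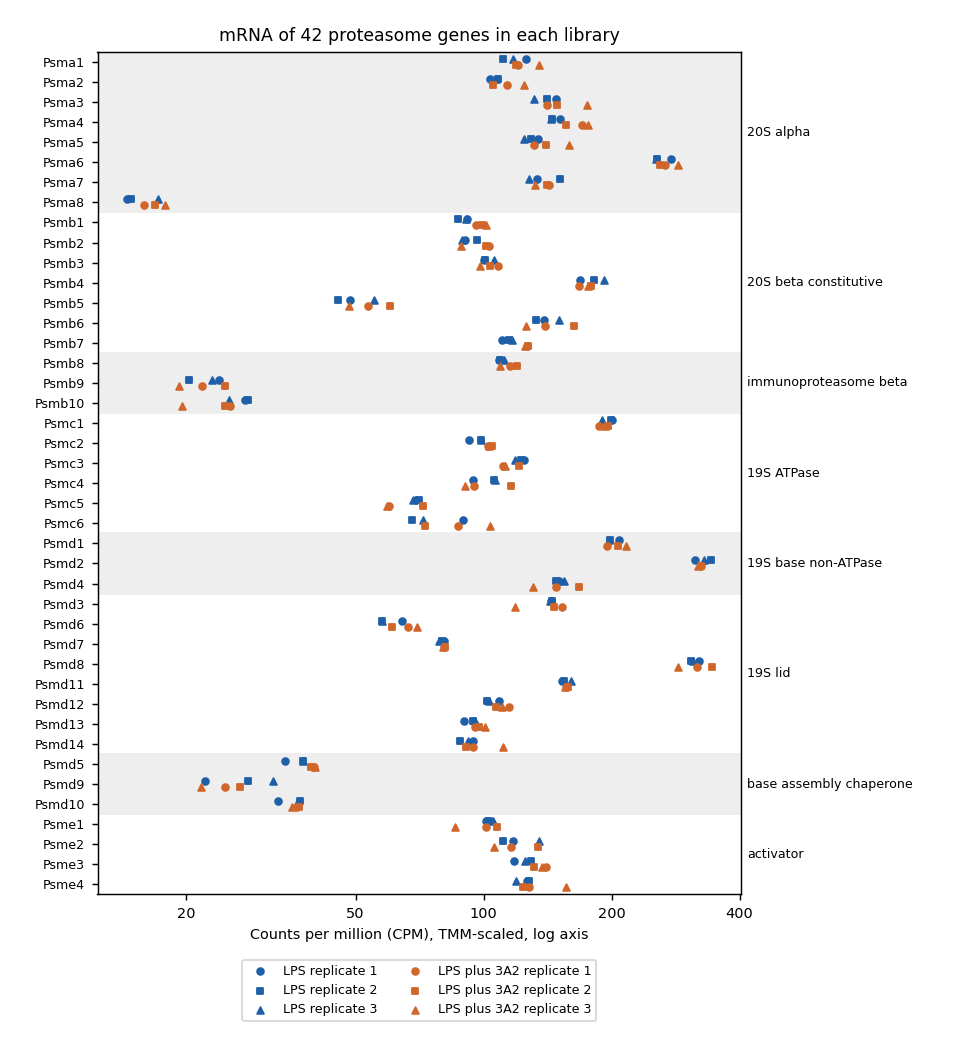
CPM (TMM-scaled, log axis) of the 42 proteasome genes that passed the filter, in each of the 6 libraries, with colour for the group and marker shape for the replicate. The 2 groups lie close together in every row, and LPS plus 3A2 replicate 3 (orange triangles) is the outermost point in many, on the right for Psma3, Psmc6 and Psme4 and on the left for Psmb10, Psmd3 and Psme1.

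Levels of different genes are compared as CPM per kb of the longest GENCODE M21 protein-coding transcript. Genes with the highest CPM of a class were picked for fuller values without such a comparison, and the CPM ratios of gene pairs are read only across libraries. On this scale the LPS means ran from 8.29 for Psmd5 to 251 for Psma6 (SD 11.3, n = 3). The 20S alpha genes had a median of 101 and the constitutive beta genes 107. The non-ATPase genes of the 19S base had 86.1, the activators 69.7, the 19S ATPases 60.5 and the lid genes 54.1. The immunoproteasome genes had 20.5 and the base assembly chaperones 10.5. Psmd8, a lid subunit, was the most abundant of the 19S genes at 158 ± 3.60, and with coding length in place of transcript length it took the first rank of all instead of the third. Psma8, known as a testis alpha subunit that replaces Psma7, was at 9.15 ± 0.864, against 119 ± 10.4 for Psma7. With coding length the class medians were 181 for the alpha, 153 for the constitutive beta and 151 for the activator genes, so alpha and beta changed order. The 19S medians were then 121 for the non-ATPase base, 87.0 for the lid and 74.6 for the ATPases.

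No proteasome gene passed the test. By edgeR's quasi-likelihood test 0 of 42 genes were called at a Benjamini-Hochberg adjusted p under 0.05, where 0% of all 11498 tested genes were called, and the smallest adjusted p in the group was 0.719. With unadjusted p-values of edgeR 2 genes lay under 0.05, both higher with 3A2 (4.76%), against 6.51% of all genes, of which 3.43% were higher and 3.09% lower. DESeq2 called 0 of them and limma-voom 0, with 1 and 2 genes under 0.05 before adjustment, against 2.14% and 6.35% of all genes. The edgeR count under 0.05 changed with single libraries. It was 9 without LPS plus 3A2 replicate 2, when 15.01% of all genes lay under 0.05, and 4 without LPS plus 3A2 replicate 3, when 5.61% did. It was 0 without LPS replicate 2 or LPS replicate 3, when 3.92% and 4.21% did. Fold changes ran from 0.862 to 1.15, and the 95% interval lay within 1.25-fold in either direction for 35 of 42 genes (83.3%), against 42.8% of all genes and 62.3% of the 7264 genes in the same range of CPM. It lay within 1.5-fold for 42 of 42, against 98.1% of the genes in that range. The median absolute log2 fold change was 0.081 for the proteasome genes and 0.079 for the genes in that range. The proteasome genes thus moved no less, while their median standard error was smaller, at 0.077 against 0.099.

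The fold changes lay above 1 for 29 of the 42 genes and below 1 for 13, at a median log2 fold change of 0.042, against 0.0017 over all genes tested, of which 49.6% lay below 1. Without LPS plus 3A2 replicate 3, 8 of the 42 lay below 1, and without LPS plus 3A2 replicate 2, 17 did. All 3 libraries with 3A2 lay above all 3 with LPS for 7 genes (16.7%: Psma4, Psmb1, Psmb7, Psmc2, Psmd5, Psmd13 and Psme3), and below for 0, where 12.3% of all genes had groups apart, 5.84% higher and 6.46% lower. Summed over the 43 genes, CPM was 4948, 4929 and 4949 with LPS and 5032, 5156 and 5056 with 3A2, so the groups did not overlap. As a share of the unscaled library total the values were 0.494%, 0.497% and 0.502% with LPS and 0.4996%, 0.513% and 0.501% with 3A2, which overlap.

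**Figure D2:**
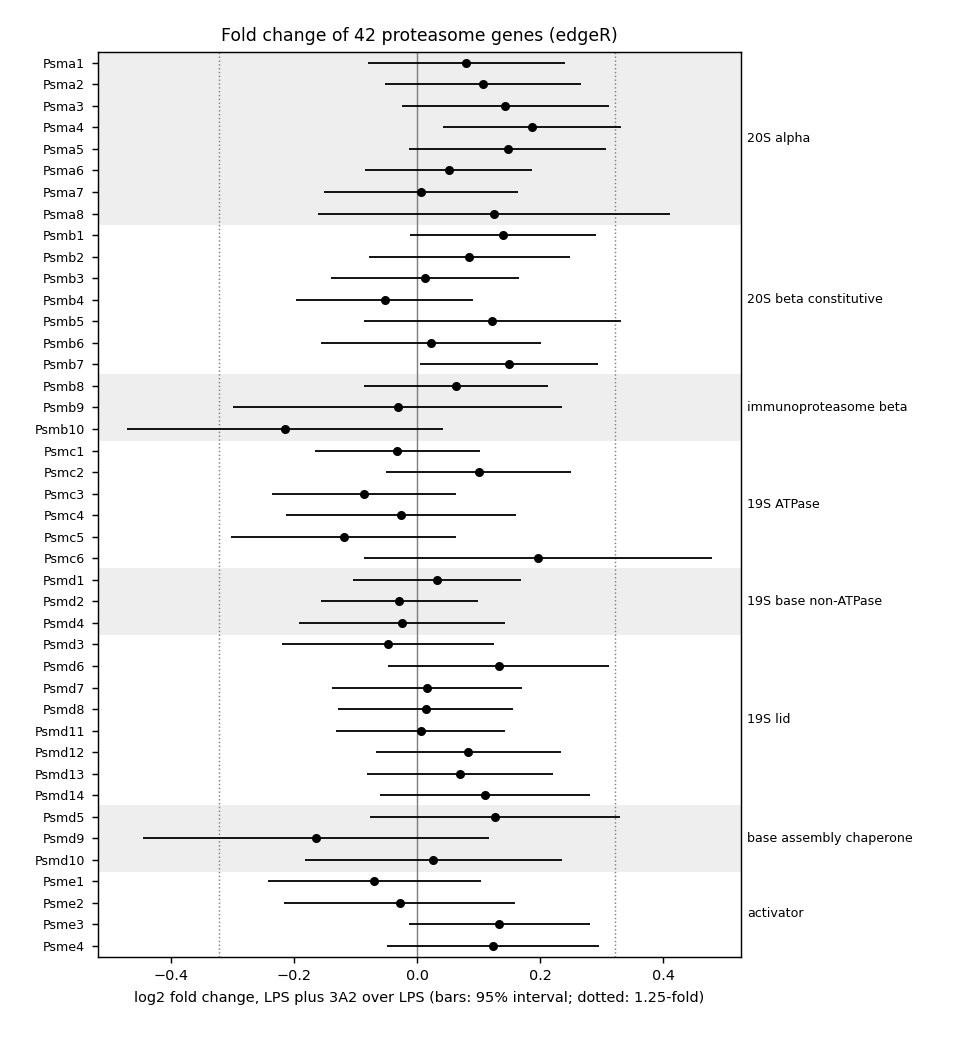
Log2 fold change of LPS plus 3A2 over LPS by edgeR for the 42 proteasome genes (points) with 95% intervals (bars), grouped by class, with dotted lines at 1.25-fold. The intervals of Psma4 and Psmb7 exclude 0, and 35 of 42 lie between the dotted lines.

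The 7 alpha genes of somatic cells, which form the outer rings and the gate of the core, and Psma8 lay above 1 in 8 of 8 cases, at fold changes of 1.004 to 1.14 (median log2 0.12). Psma4 was at 151, 145 and 144 CPM with LPS and at 170, 156 and 176 CPM with 3A2. Its groups did not overlap, and the fold change was 1.14 (95% interval 1.03 to 1.26, adjusted p = 0.719). Psma6, with the highest CPM of the alpha genes, was at 275, 256 and 254 CPM with LPS and at 267, 260 and 287 CPM with 3A2. Its groups overlapped, at 1.04-fold (0.943 to 1.14). Psma1, Psma2, Psma3 and Psma5 stood at 1.06 to 1.11-fold, and in each of them LPS plus 3A2 replicate 3 was the highest library. Psma7 stood at 1.004-fold and Psma8 at 1.09-fold (0.895 to 1.33), the widest alpha interval, on 98 to 112 counts per library.

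Among the constitutive beta genes 6 of 7 lay above 1, with a median log2 fold change of 0.085. Psmb7, the subunit with trypsin-like activity, was at 111, 115 and 116 CPM with LPS and at 126, 127 and 125 CPM with 3A2. The groups did not overlap and the 3A2 libraries were close to each other, at 1.11-fold (95% interval 1.003 to 1.23, adjusted p = 0.748). Psmb5, with chymotrypsin-like activity, was at 48.5, 45.5 and 55.2 CPM with LPS and at 53.5, 60.2 and 48.3 CPM with 3A2. Psmb6, with caspase-like activity, was at 139, 133 and 151 CPM with LPS and at 140, 163 and 126 CPM with 3A2. Both overlapped between groups, at 1.09-fold (0.942 to 1.26) and 1.02-fold (0.898 to 1.15). Psmb4, a structural subunit with the highest CPM of the class, was at 168, 182 and 192 CPM with LPS and at 167, 179 and 176 CPM with 3A2, a fold change of 0.964 (0.873 to 1.07). Psmb1, also structural, measured 89.7 ± 2.27 and 98.8 ± 2.74 CPM (SD, n = 3), and Psmb2 and Psmb3 stood at 1.06 and 1.01-fold.

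No immunoproteasome gene passed the test, and 1 of 3 lay above 1, at a median log2 fold change of -0.031. Psmb8, the replacement of Psmb5, was at 109, 109 and 111 CPM with LPS and at 115, 120 and 109 CPM with 3A2, a fold change of 1.04 (95% interval 0.942 to 1.16). Psmb9, the replacement of Psmb6, was at 23.8, 20.3 and 22.99 CPM with LPS and at 21.7, 24.6 and 19.2 CPM with 3A2, a fold change of 0.978 (0.813 to 1.18). Psmb10, the replacement of Psmb7, was at 27.5, 27.9 and 25.1 CPM with LPS and at 25.3, 24.6 and 19.5 CPM with 3A2. The groups of Psmb8, Psmb9 and Psmb10 overlapped. Psmb10 had the lowest fold change of all 42 genes, 0.862 (0.721 to 1.03, adjusted p = 0.778), or -0.22 on the log2 scale. Without LPS plus 3A2 replicate 3, its lowest library, the value was -0.11.

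Within the catalytic pairs the immunoproteasome partner prevailed in 1 of 3. Per kb of transcript, Psmb8 was at 67.5 ± 0.814 and Psmb5 at 55.3 ± 5.48 with LPS, Psmb9 at 16.5 ± 1.37 and Psmb6 at 177 ± 11.3, and Psmb10 at 20.5 ± 1.14 and Psmb7 at 98.1 ± 2.56. The CPM ratio of Psmb8 to Psmb5 was 2.24, 2.40 and 2.02 with LPS and 2.16, 1.99 and 2.26 with 3A2, and that of Psmb9 to Psmb6 was 0.171, 0.153 and 0.153 against 0.155, 0.150 and 0.153. Both overlapped between the groups. The ratio of Psmb10 to Psmb7 was 0.249, 0.244 and 0.216 with LPS and 0.200, 0.193 and 0.156 with 3A2, so that all 3 libraries with 3A2 lay below all 3 with LPS. Its mean was 0.236 ± 0.0175 against 0.183 ± 0.0241 (SD, n = 3), given as a description without a test. How many other gene pairs had ratios apart in this way was not counted, while 12.3% of single genes had groups apart. Psmb10 rested on 117 to 209 counts per library, and its own groups overlapped. Transcript GC content was 56.5% for Psmb10 and 48.7% for Psmb7, but 55.8% and 56.6% for Psmb8 and Psmb5 and 55.3% and 55.8% for Psmb9 and Psmb6. The log2 fold change of Psmb10 minus that of Psmb7 was -0.36, and it was -0.31 with the GC trend of each library removed and -0.26 without LPS plus 3A2 replicate 3.

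**Figure D3:**
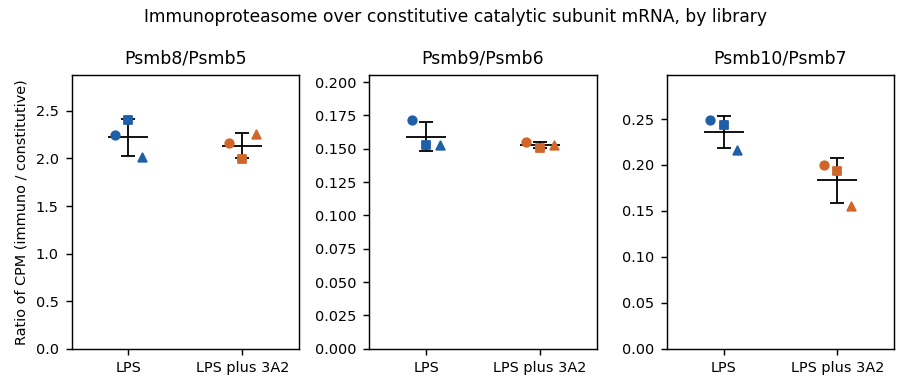
Ratio of CPM of each immunoproteasome gene to its constitutive counterpart in each library (points, marker shape for the replicate), with the mean and SD of 3 libraries (bars) and axes from 0. The ratios of Psmb8 to Psmb5 and Psmb9 to Psmb6 overlap between groups, while the 3 ratios of Psmb10 to Psmb7 with 3A2 (0.156 to 0.200) lie below those with LPS (0.216 to 0.249).

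The ATPases of the 19S base, which unfold substrates, lay above 1 in 2 of 6 cases, with a median log2 fold change of -0.029. Psmc6 had the highest fold change of all 42 genes, 1.15 (95% interval 0.942 to 1.39, adjusted p = 0.813), and also varied most between replicates of this class. It was at 89.5, 68.0 and 72.0 CPM with LPS and at 86.8, 72.8 and 103 CPM with 3A2, so the groups overlapped. Its log2 fold change of 0.20 was 0.068 with the GC trend removed and 0.062 without LPS plus 3A2 replicate 3, below those of Psmb5 in the same fits (0.18 and 0.20). It was 0.12 without LPS replicate 2, 0.32 without LPS replicate 1 and also 0.32 without LPS plus 3A2 replicate 2. Psmc1, with the highest CPM of the class, was at 200.01, 199 and 189 CPM with LPS and at 186, 196 and 193 CPM with 3A2, a fold change of 0.978 (0.891 to 1.07). Psmc2 stood at 1.07-fold with groups apart, and Psmc3, Psmc4 and Psmc5 at 0.942, 0.982 and 0.920-fold.

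The scaffold and receptor subunits of the base stood at 0.980 to 1.02-fold, the narrowest range of the 8 classes with tested genes. Psmd1, a large scaffold subunit, was at 209, 198 and 197 CPM with LPS and at 195, 206 and 216 CPM with 3A2, a fold change of 1.02 (95% interval 0.931 to 1.12). Psmd2, the other scaffold, was at 314, 343 and 330 CPM with LPS and at 325, 324 and 319 CPM with 3A2, a fold change of 0.980 (0.897 to 1.07). Psmd4, a ubiquitin receptor, stood at 0.983-fold, with LPS plus 3A2 replicate 2 highest and replicate 3 lowest of the 6 libraries.

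Lid genes lay above 1 in 7 of 8 cases, with a median log2 fold change of 0.043. Psmd6 had the smallest p of the lid, at 64.2, 57.8 and 57.8 CPM with LPS and 66.4, 61.0 and 69.8 CPM with 3A2, a fold change of 1.10 (95% interval 0.968 to 1.24, adjusted p = 0.806). Its groups overlapped. Psmd8, with the highest CPM of the lid, was at 322, 308 and 311 CPM with LPS and at 318, 344 and 287 CPM with 3A2, a fold change of 1.01 (0.915 to 1.11). Psmd14, the deubiquitinase that removes ubiquitin chains before degradation, measured 91.5 ± 3.17 and 98.7 ± 10.6 CPM (SD, n = 3), or 1.08-fold (0.959 to 1.21). Psmd3, Psmd7, Psmd11, Psmd12 and Psmd13 stood at 0.968 to 1.06-fold, and of these Psmd13 alone had groups apart.

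The chaperones that assemble the base had the lowest median of the 8 classes per kb of transcript, though not per kb of coding sequence (41.05 against 34.1 for the immunoproteasome genes), and 2 of 3 lay above 1. Psmd5 was at 34.1, 37.5 and 37.7 CPM with LPS and at 40.01, 39.2 and 40.2 CPM with 3A2. Its groups did not overlap, at 1.09-fold (95% interval 0.948 to 1.26, adjusted p = 0.831). Psmd10, known as the oncoprotein gankyrin, stood at 1.02-fold. Psmd9 stood at 0.892-fold (0.734 to 1.08), with LPS values from 22.1 to 32.03 CPM. A Psmd9 exon overlaps the gene Gm26745 on the opposite strand by 1849 bases in GENCODE M21, and the strand setting of the counting was not given with the labels. Shorter overlaps of exons with another gene were found for 11 other proteasome genes, among them Psmb9 with Tap1 on the opposite strand, so their counts may hold reads of that neighbour.

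Activators of the core were split, with 2 of 4 above 1. Psme1 and Psme2 encode the interferon-inducible PA28 ring, which attaches to the core and promotes the release of peptides. Psme1 was at 101, 103 and 105 CPM with LPS and at 102, 108 and 85.5 CPM with 3A2, a fold change of 0.953 (95% interval 0.845 to 1.07). Psme2 was at 117, 111 and 135 CPM with LPS and at 116, 134 and 106 CPM with 3A2, a fold change of 0.981 (0.861 to 1.12). Both overlapped between groups, and the ratio of Psme1 to Psme2 was 0.857 ± 0.0732 with LPS and 0.829 ± 0.0393 with 3A2 (SD, n = 3). Psme2b, a gene close in name to Psme2 and outside the rule, had 83 to 116 counts per library, and reads of near-identical copies may be split between such genes. Psme3, the nuclear PA28 gamma, was at 118, 129 and 125 CPM with LPS and at 140, 131 and 137 CPM with 3A2. Its groups did not overlap, at 1.10-fold (0.991 to 1.22, adjusted p = 0.757). Psme4, the large activator PA200, was at 126, 128 and 119 CPM with LPS and at 128, 124 and 156 CPM with 3A2, a fold change of 1.09 (0.967 to 1.23), with LPS plus 3A2 replicate 3 above the other 5 libraries.

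The order of the genes within LPS plus 3A2 replicate 3 followed the GC content of their transcripts. Over the 42 genes, GC content ran from 36.97% (Psmc6) to 58.3% (Psmd3), and its correlation with the deviation of log2 CPM from the mean of the 6 libraries was r = -0.84 (Spearman rho = -0.85) in that library. In the other libraries r was 0.08, 0.41 and 0.53 with LPS and -0.12 and 0.66 with 3A2 (replicates in order of their labels). The same was seen beyond the proteasome, with r = -0.71 in LPS plus 3A2 replicate 3 over the 6966 tested genes of the same CPM range. These are correlations across genes that share libraries, and genes are not independent replicates. The 14 genes of lowest GC content (up to 47.9%) had a median deviation of 0.16 in that library and the 14 of highest GC content (from 52.7%) one of -0.17, while in LPS plus 3A2 replicate 2 the medians were -0.014 and 0.098.

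**Figure D4:**
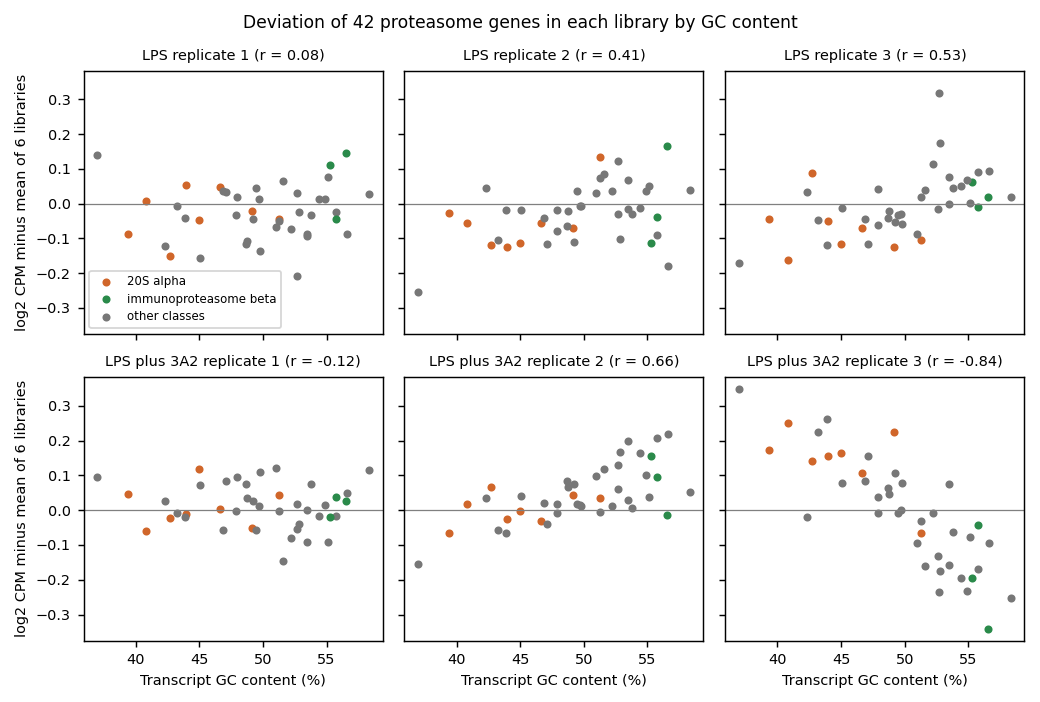
Deviation of log2 CPM from the mean of the 6 libraries (vertical axis) against transcript GC content (horizontal axis) for the 42 proteasome genes, 1 panel per library, with alpha and immunoproteasome genes coloured. The points fall with GC content in LPS plus 3A2 replicate 3 (r = -0.84) and rise in LPS plus 3A2 replicate 2 (r = 0.66) and LPS replicate 3 (r = 0.53).

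Fold changes between the groups followed GC content too, at r = -0.63 over the 42 proteasome genes and -0.47 over the 6966. Of the 14 proteasome genes of lowest GC content 14 lay above 1, of the middle 14 genes 10 did, and of the 14 of highest GC content 5 did. Alpha genes had a median GC content of 44.5%, the lowest of the 8 classes with tested genes, and immunoproteasome genes the highest, 55.8%. With the GC trend of each library removed, an adjustment chosen after the data were seen, r was -0.17 over the proteasome genes. The median log2 fold change of the alpha genes was then 0.042 instead of 0.12 and that of the immunoproteasome genes 0.013 instead of -0.031, while that of the constitutive beta genes was 0.10 instead of 0.085. Without LPS plus 3A2 replicate 3 and with no adjustment, these medians were 0.046, 0.054 and 0.12 in the same order of alpha, immunoproteasome and constitutive beta genes. Without LPS plus 3A2 replicate 2, whose GC trend ran the other way, they were 0.14, -0.13 and 0.036. The immunoproteasome median was also above 0 without LPS replicate 1, at 0.017, and the constitutive beta median was 0.047 without LPS plus 3A2 replicate 1. Psmb10 stood at -0.16 on the log2 scale after the adjustment and at -0.22 before it. At an unadjusted p under 0.05 the adjusted fit held 7 genes, all higher with 3A2 (Psma4, Psma5, Psmb1, Psmb5, Psmb7, Psmb8 and Psme3), where 9.34% of all genes lay under 0.05 in that fit, and 0 of 42 were called over all genes, with 0.245 as the smallest adjusted p by edgeR. An adjustment of this kind also removes any effect of 3A2 that itself follows GC content.

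Genes that act with the proteasome were looked at from 4 lists, and 0 of their 38 tested members passed over all genes by edgeR. Of 14 assembly factors and proteasome-bound proteins, 8 lay above 1 and 6 below. Usp14, a deubiquitinase bound to the 19S base, was at 135, 127 and 124 CPM with LPS and at 137, 135 and 159 CPM with 3A2, a fold change of 1.12 (95% interval 1.002 to 1.25, adjusted p = 0.748), with groups just apart. Ecpas, a large adaptor of the proteasome with the highest CPM of the list, stood at 0.983-fold (0.875 to 1.10). Among 8 genes that control proteasome transcription, 4 lay above 1 and 4 below, with 0 at an unadjusted p under 0.05. Nfe2l1, which encodes NRF1, the factor that raises proteasome genes when degradation is limiting, was at 148, 152 and 154 CPM with LPS and at 144, 160 and 124 CPM with 3A2, a fold change of 0.944 (0.841 to 1.06). Irf1, which acts in interferon signalling, stood at 1.01-fold.

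Of 11 ubiquitin, shuttle and unfoldase genes 4 lay above 1 and 7 below. Ubb, which encodes a chain of ubiquitin repeats, was at 534, 525 and 566 CPM with LPS and at 490, 537 and 433 CPM with 3A2, a fold change of 0.899 (95% interval 0.811 to 0.996, adjusted p = 0.748). The groups overlapped, with LPS plus 3A2 replicate 3 lowest, and reads of near-identical ubiquitin repeats may be shared between genes. Of 5 genes for peptide transport and loading, 2 lay above 1. B2m, the MHC class I light chain, was at 783, 770 and 810 CPM with LPS and at 843, 860 and 876 CPM with 3A2, with groups apart, at 1.09-fold (1.01 to 1.18, adjusted p = 0.748). Tap1 and Tap2, which carry proteasome peptides into the endoplasmic reticulum, stood at 0.983 and 0.968-fold.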

How the data were processed

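The values deposited by the authors are unnormalized whole-number counts, 1 row per gene symbol and 1 column per library. Per the labels' protocols, total RNA was depleted of ribosomal RNA and sequenced as strand-specific paired-end libraries. HISAT2, edgeR and GRCh38, a human build, are named per the submitters' processing notes, while the symbols are of mouse; the sources used here do not give the counting program, annotation or strand setting. Typed cells in 3 unnamed columns were not used.

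Counts were filtered with filterByExpr (11498 genes left), TMM-scaled, and LPS plus 3A2 was compared with LPS in edgeR 4.0.16 under R 4.3.3 (robust quasi-likelihood fit, two-sided, without covariates), with Benjamini-Hochberg adjustment over all genes and a threshold of 0.05. Intervals are 95%. Deviations used log2(CPM + 0.5). Transcript length and GC content came from the longest basic protein-coding transcript of GENCODE M21 (all 43 genes matched by symbol), promoters from RefSeq (GRCm38.p6; Psma6, Psmc2 and Psme2 had 2 each). Total counts were 6060732 to 7432553 per library. Every pair of libraries differed by more than sampling noise (chi-square per degree of freedom 3.34 to 22.0).

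The genes and lists were chosen with earlier results of these data known. Library values were given for Psmb5 to Psmb11 and Psme1 to Psme4, for the smallest p, the most abundant gene and any unadjusted p under 0.05 in each other class, and for partner genes by the same p or as the most abundant. Further genes are named with summary values only. Some results that this rule covers are not reported here. Of 39 listed partner genes, Paaf1 was not analysed here. Alternatives were DESeq2 size factors, plain totals that leave out mitochondrial and the 20 top genes, limma-voom 3.58.1, DESeq2 1.42.0, a filter of 1 CPM in every library or none, the replicate number as a block, leaving out each library, and a GC correction (loess, span 0.3, 10323 genes). The tests were tried on simulated data.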

Additional observations from a re-analysis of the deposited data

How the results depend on the processing

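Proteasome genes called numbered 0 under all 14 alternatives, and the median log2 fold change of the 42 genes stayed at 0.030 to 0.058 when single libraries were left out. Genes called over the whole table numbered 0 with all libraries, 16 with no filter, 1 with DESeq2, 1 with the replicate block and 22 with the GC correction, and 0 to 24 with a library left out, most without LPS plus 3A2 replicate 2. None of these was a proteasome gene. Same-numbered replicates did not deviate together (r = -0.010, 0.025 and -0.16), and 1 of the 6 libraries correlated best with its own number. The labels give no batch and do not tie replicate numbers to a shared day, so the block was fitted as an alternative only. Proteasome genes under an unadjusted p of 0.05 numbered 2, with 1 under DESeq2 or the replicate block, 3 with no filter, 7 with the GC correction and 0 to 9 with a library left out. The shares of all genes were 6.51%, 2.14% under DESeq2, 5.32% with the block, 6.16% with no filter and 9.34% with the GC correction. With a library left out, 3.92% to 15.01% of all genes lay under 0.05.

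For 28 of the 42 genes the sign of the log2 fold change was the same under every alternative, and it changed for 14, all within 0.15 of 0. With a library left out, their log2 fold changes ran from -0.043 to 0.080 for Psma7, -0.021 to 0.047 for Psmb3, -0.085 to 0.11 for Psmb6, -0.13 to 0.054 for Psmb9, -0.14 to 0.044 for Psmc4, -0.00096 to 0.069 for Psmd1, -0.060 to 0.0026 for Psmd2, -0.12 to 0.062 for Psmd4, -0.12 to 0.056 for Psmd3, -0.051 to 0.079 for Psmd8, -0.0092 to 0.028 for Psmd11, -0.025 to 0.058 for Psmd10, -0.14 to 0.021 for Psme1 and -0.13 to 0.054 for Psme2. With the GC correction the sign changed for Psmb9 (0.013), Psmc4 (0.0100), Psmd4 (0.016), Psmd3 (0.020), Psmd11 (-0.0041), Psmd10 (-0.043) and Psme2 (0.0064). The cause was not tested. Psmb11 was too low to test. With 3 libraries per group, smaller differences than the intervals given cannot be told from the spread between replicates.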
